A study of Homo sapiens with 4 samples.

Results

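The lysyl oxidases and collagen hydroxylases described here are 10 genes of the 39519 gene symbols in the table: LOX, LOXL1, LOXL2, LOXL3, LOXL4, PLOD1, PLOD2, PLOD3, P4HA1 and P4HA2. They were chosen by function around LOXL4, which was selected on its TPM in sh-PURB against sh-NC libraries (higher, while many matrix genes were lower). That contrast helped to choose them, so their values in it are a description without a test. The cells were U2OS, an established human osteosarcoma line, and their RNA was sequenced after removal of ribosomal RNA. In the 2 sh-PURB libraries, a short hairpin RNA against PURB, a single-stranded nucleic acid binding protein, was induced with doxycycline at 5.0 µg/ml for 72 h. The 2 sh-NC libraries came from control hairpin cells that received DMSO. Doxycycline was given with the PURB hairpin alone, so effects of the hairpin and of the drug cannot be told apart. The labels do not say whether the libraries came from separate cultures, whether one hairpin was used in both sh-PURB libraries or whether the cells are a single clone, so the spread behind each p-value is that of these 4 libraries and may be technical.

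Collagen chains are modified in and outside the cell on their way to a stable fibre. In the endoplasmic reticulum, prolyl 4-hydroxylases (alpha subunits encoded by P4HA genes, beta subunit by P4HB) hydroxylate prolines, which stabilises the triple helix, and the lysyl hydroxylases of the PLOD genes hydroxylate lysines, which fixes the kind of crosslink that can form. Outside the cell, the copper-dependent lysyl oxidases convert lysines and hydroxylysines of collagen and elastin into aldehydes that crosslink neighbouring chains. The hydroxylases need iron, ascorbate, oxygen and 2-oxoglutarate. Known targets of the hypoxia-inducible transcription factor HIF-1 include PLOD1, PLOD2, P4HA1, P4HA2, LOX and LOXL2. These are examples, and whether the other genes described here, LOXL4 among them, are HIF-1 targets was not tested.

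Promoter windows, 250 bases before to 50 after the RefSeq gene start on GRCh38.p14, were found for 9 of the 10 genes, all but LOXL2. Windows of 3 genes are shown because LOXL4 was the 1 gene above both controls in both sh-PURB libraries, and PLOD2 and P4HA1 are the hydroxylase genes at about 58% of control whose windows hold a hypoxia core. Each is written 5′ to 3′ on the gene's own minus strand: LOXL4 at chr10:98268145-98268444, PLOD2 at chr3:146161135-146161434 and P4HA1 at chr10:73096817-73097116. In LOXL4 the capitals mark GGNGGNGGN, the repeat type bound by PUR proteins, on either strand. In PLOD2 and P4HA1 the capitals mark ACGTG or GCGTG, the core of hypoxia response elements, on either strand.
LOXL4: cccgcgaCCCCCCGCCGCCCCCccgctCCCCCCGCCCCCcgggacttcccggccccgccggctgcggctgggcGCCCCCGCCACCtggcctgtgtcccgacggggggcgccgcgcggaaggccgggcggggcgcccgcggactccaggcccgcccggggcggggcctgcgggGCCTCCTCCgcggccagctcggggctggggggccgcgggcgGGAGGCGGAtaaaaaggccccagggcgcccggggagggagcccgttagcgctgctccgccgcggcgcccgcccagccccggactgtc
PLOD2: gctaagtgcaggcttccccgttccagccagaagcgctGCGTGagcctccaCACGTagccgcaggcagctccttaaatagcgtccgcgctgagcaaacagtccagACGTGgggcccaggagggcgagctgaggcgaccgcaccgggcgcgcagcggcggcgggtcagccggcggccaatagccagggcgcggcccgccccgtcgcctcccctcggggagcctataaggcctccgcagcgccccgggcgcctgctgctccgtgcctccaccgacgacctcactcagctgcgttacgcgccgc
P4HA1: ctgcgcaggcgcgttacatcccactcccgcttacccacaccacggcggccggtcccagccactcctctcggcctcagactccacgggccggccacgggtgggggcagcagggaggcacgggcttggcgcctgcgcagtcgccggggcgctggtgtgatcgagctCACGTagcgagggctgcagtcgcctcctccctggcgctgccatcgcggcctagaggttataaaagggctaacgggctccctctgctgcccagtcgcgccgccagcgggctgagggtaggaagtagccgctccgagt
LOXL4 held 9 matches to GGNGGNGGN, counting matches that overlap each other, and no match to ACGTG or GCGTG. Among the promoters of tested genes 70.4% held at least 1 GGNGGNGGN match and 3.6% held 9 or more. The LOXL4 window was 85.3% G and C, against a median of 65.3% in those promoters, and 0.439% of them were as rich, so base composition and the repeat count are not separate properties here. The hypoxia core was matched 4 times in LOX, 3 times in PLOD2, 2 times in PLOD1 and 1 time in P4HA1. It was matched 0 times in LOXL1, LOXL3, LOXL4, PLOD3 and P4HA2, and 63.3% of the promoters of tested genes held it. In percent of control, genes with a match stood at 79.4 (LOX), 58.4 (PLOD2), 73.5 (PLOD1) and 58.3 (P4HA1). Those with 0 stood at 99.7 (LOXL1), 42.7 (LOXL3), 363 (LOXL4), 107 (PLOD3) and 56.6 (P4HA2). The windows shown were picked partly by these values, and a link between matches and values was not tested. A match describes letters in this window and is not evidence of a binding site.

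The hairpin's target, PURB, had 2.46 and 2.69 TPM in sh-PURB cells, against 5.29 and 6.55 TPM in sh-NC cells, 43.5% of the control mean. TPM scales reads by transcript length and library total, which leaves the number of reads behind a value unknown. The difference in log2(TPM + 1) was -0.95 with a standard error of 0.17, the adjusted p of the limma fit over all tested genes was 0.102, and the exact permutation p (two-sided) was 0.333, the lowest possible with 2 and 2 libraries. PURB passed the threshold when protein-coding genes alone were fitted. Genes above 0 numbered 22822 to 24156 per library. Protein-coding genes held 25.5% to 27.2% of the summed TPM of a library, so most of that total came from other genes. Of the osteoblast and mesenchymal markers, VIM and SPARC were high (298 to 342 and 219.5 to 261.6 TPM over the 4 libraries), COL1A1 and RUNX2 were present, and SP7, ALPL, BGLAP and IBSP stayed below 0.3 TPM, IBSP at 0 throughout. Endothelial and hepatocyte markers summed to less than 1 TPM in every library. The 5 epithelial markers summed to 6.35 and 4.53 TPM in sh-PURB libraries and 5.69 and 4.85 TPM in sh-NC libraries, most of it EPCAM and KRT14. The 5 blood markers summed to 5.10 and 3.41 TPM in sh-PURB libraries and 3.30 and 6.35 TPM in sh-NC libraries, most of it CD68. The 5 fibroblast markers summed to 39.0 and 39.2 TPM in sh-PURB libraries and 53.3 and 56.3 TPM in sh-NC libraries, and their part in the results was not tested.

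Among the lysyl oxidases, LOXL4 was higher in sh-PURB cells and the other members were lower or overlapped. LOXL4, one of the family members with scavenger receptor domains before the catalytic domain (chromosome 10, 98247690 to 98268250, minus strand; GRCh38, GENCODE 29, as for all genes here), had 61.8 and 88.3 TPM in sh-PURB libraries, against 19.9 and 21.4 TPM in sh-NC libraries. Both sh-PURB libraries lay far above both controls, and they differed more from each other than the controls did. The ratio of mean TPM was 3.63 and the difference in log2(TPM + 1) was 1.79 with a standard error of 0.19. Of the 14269 tested genes, 82 had a larger positive difference. In bulk RNA, more cells with a transcript and more transcript per cell cannot be told apart.

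LOXL2, which crosslinks basement membrane collagen among other substrates (chromosome 8, 23297189 to 23425328, minus strand), stood at 12.6 and 14.2 TPM in sh-PURB libraries and at 22.6 and 24.4 TPM in sh-NC libraries. The groups did not overlap, the sh-PURB mean was 57.0% of control, and the log2 difference was -0.77 with a standard error of 0.13. LOXL3 (chromosome 2, 74532414 to 74555690, minus strand) had the lowest share of control, 42.7%, with 1.21 and 2.12 TPM in sh-PURB libraries against 3.18 and 4.62 TPM in sh-NC libraries. Its mean level was also the lowest of the 10 genes in both groups, and its log2 difference of -0.89 had a standard error of 0.27. Without overlap but with a smaller gap, LOX, the founding member (chromosome 5, 122063195 to 122078360, minus strand), had 3.55 and 3.80 TPM in sh-PURB libraries and 4.53 and 4.74 TPM in sh-NC libraries. Its log2 difference was -0.27 with a standard error of 0.15. LOXL1, known for its role in elastic fibre upkeep (chromosome 15, 73925989 to 73952137, plus strand), was at 9.31 and 17.1 TPM in sh-PURB libraries, on both sides of the 12.8 and 13.7 TPM of the sh-NC libraries. The sign of its difference turned with the libraries used: leaving out sh-PURB replicate 1 gave 0.35 and leaving out sh-PURB replicate 2 gave -0.47.

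**Figure D1:**
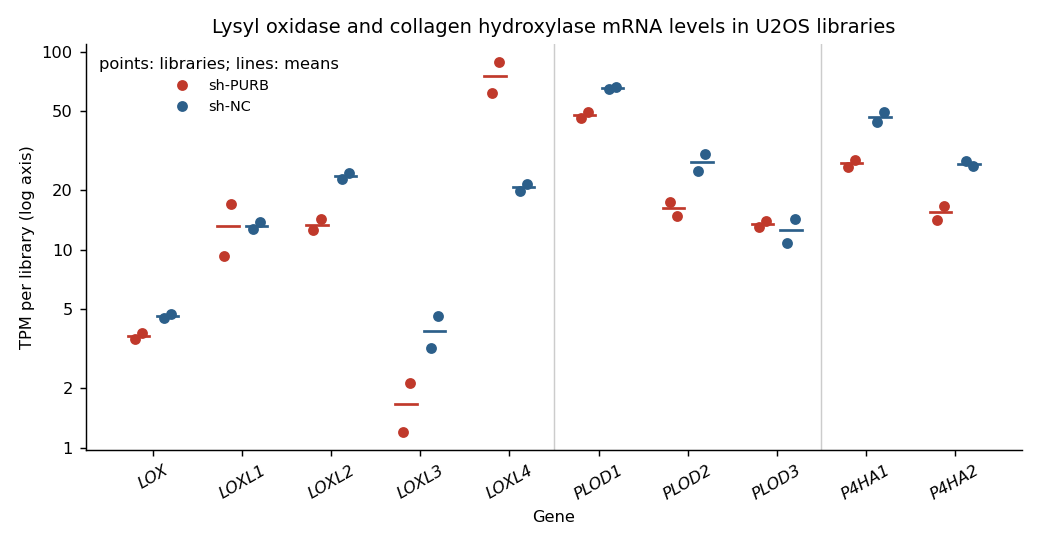
TPM of each gene (x axis) in each library on a log axis, with sh-PURB in red left of sh-NC in blue; points are the 2 libraries of a group and short lines their means. LOXL4 lies at 61.8 and 88.3 TPM in sh-PURB against 19.9 and 21.4 TPM in sh-NC, while LOXL1 and PLOD3 overlap between the groups and the other 7 genes are lower in sh-PURB.

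The make-up of the lysyl oxidase sum differed between the groups. LOXL4 made up 69.9% and 70.3% of the summed TPM of the 5 genes in sh-PURB libraries, against 31.5% and 31.1% in sh-NC libraries. These shares do not depend on how a library is scaled, and LOXL4's share varied by less than 1 percentage point within a group. LOXL2 made up 14.2% and 11.3% in sh-PURB libraries and 35.9% and 35.4% in sh-NC libraries, so the order of LOXL2 and LOXL4 was opposite in the groups. The TPM ratio of LOXL4 to LOXL2 was 4.92 and 6.20 in sh-PURB libraries and 0.878 and 0.879 in sh-NC libraries. The summed level of the 5 lysyl oxidases was 107 ± 26.2 TPM in sh-PURB and 66.0 ± 4.17 TPM in sh-NC (SD, n = 2 each). Without LOXL4 the sum was 32.0 ± 7.51 TPM in sh-PURB and 45.3 ± 3.08 TPM in sh-NC, 0.705 of control.

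**Figure D2:**
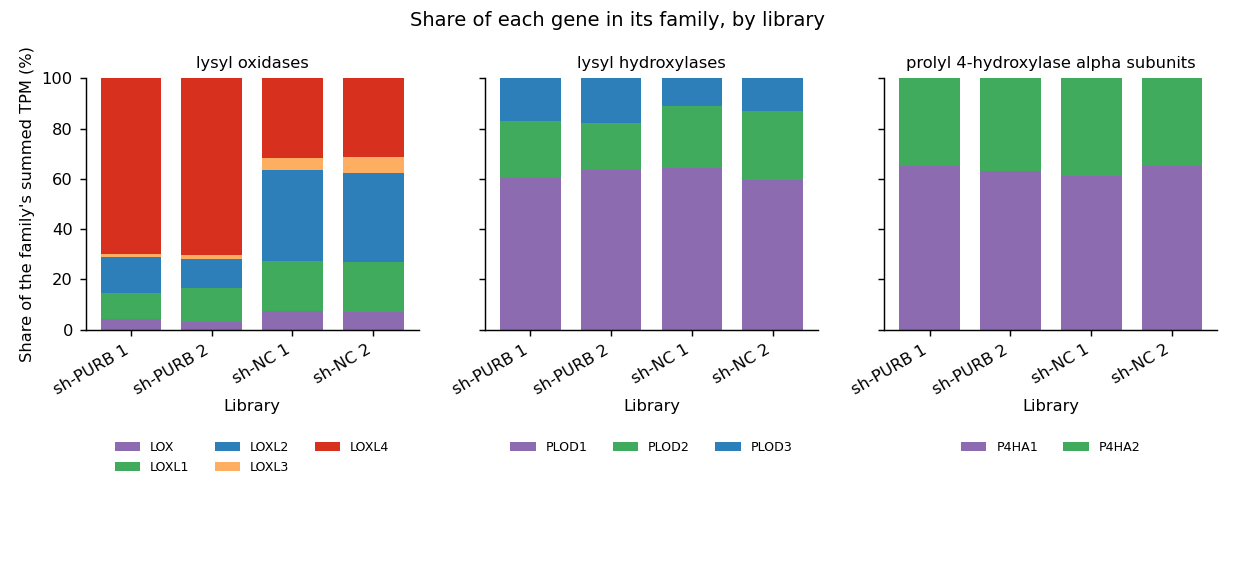
Share of each gene in the summed TPM of its family (y axis, percent) for each library (x axis), sh-PURB left of sh-NC, in 1 panel per family. LOXL4 takes 69.9% and 70.3% of the lysyl oxidase sum in sh-PURB libraries and 31.5% and 31.1% in sh-NC libraries, while P4HA1 takes between 61.3% and 65.1% of its sum in all 4.

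The lysyl hydroxylases split. PLOD2, which hydroxylates lysines in the collagen telopeptides and so directs the formation of pyridinoline crosslinks (chromosome 3, 146069440 to 146163653, minus strand), had 17.4 and 14.9 TPM in sh-PURB libraries, against 24.9 and 30.4 TPM in sh-NC libraries. The sh-PURB mean was 58.4% of control, with a log2 difference of -0.74 and a standard error of 0.15. PLOD1, which acts on lysines of the triple helix (chromosome 1, 11934205 to 11975538, plus strand), was the most abundant of the 3, at 46.4 and 49.8 TPM in sh-PURB libraries and 64.9 and 66.0 TPM in sh-NC libraries. Its share of control was 73.5%, with a log2 difference of -0.44 and a standard error of 0.10. PLOD3, which also carries the glycosyltransferase activity that adds sugars to hydroxylysine (chromosome 7, 101205977 to 101218420, minus strand), had 13.0 and 13.9 TPM in sh-PURB libraries, inside the 10.9 and 14.3 TPM of the sh-NC libraries. Its log2 difference was 0.10 with a standard error of 0.17, and -0.09 without sh-NC replicate 1. The TPM ratio of PLOD2 to PLOD3 was 1.34 and 1.07 in sh-PURB libraries and 2.30 and 2.12 in sh-NC libraries. The ratio of PLOD2 to PLOD1 did not overlap either but lay closer, at 0.376 and 0.299 in sh-PURB libraries and 0.384 and 0.460 in sh-NC libraries. The summed level of the 3 genes was 77.7 ± 1.24 TPM in sh-PURB and 106 ± 7.11 TPM in sh-NC (SD, n = 2 each).

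Both prolyl 4-hydroxylase alpha subunits were lower in sh-PURB cells by nearly the same factor. P4HA1 (chromosome 10, 73007217 to 73096974, minus strand) had 26.3 and 28.4 TPM in sh-PURB libraries and 44.4 and 49.4 TPM in sh-NC libraries. P4HA2 (chromosome 5, 132191838 to 132295315, minus strand) had 14.2 and 16.7 TPM in sh-PURB libraries, against 28.0 and 26.5 TPM in sh-NC libraries. Neither gene overlapped between the groups. The sh-PURB means were 58.3% of control for P4HA1 and 56.6% for P4HA2, with log2 differences of -0.76 and -0.79 and standard errors of 0.11 and 0.13. P4HA1 took 64.9% and 63.0% of the sum of the pair in sh-PURB libraries and 61.3% and 65.1% in sh-NC libraries, so the shares overlapped. The sum was 42.8 ± 3.30 TPM in sh-PURB and 74.2 ± 2.45 TPM in sh-NC (SD, n = 2 each).

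**Figure D3:**
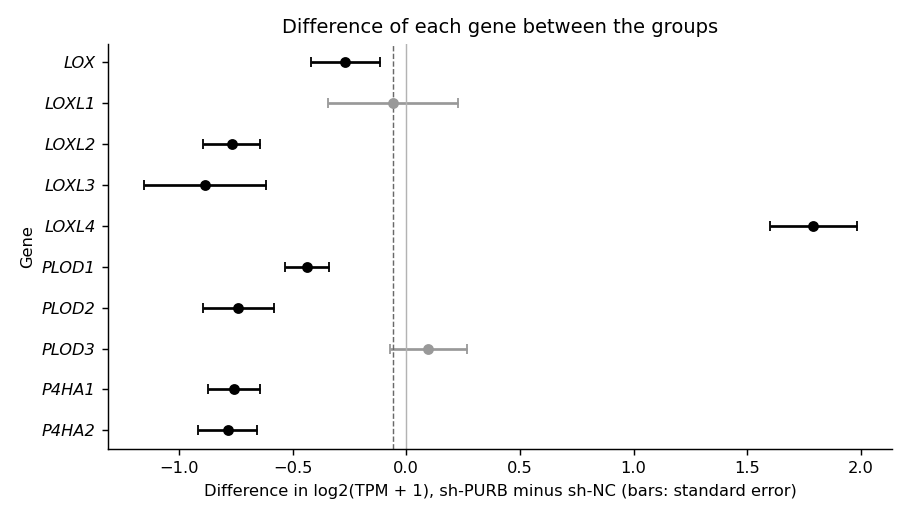
Difference in log2(TPM + 1), sh-PURB minus sh-NC (x axis), with its standard error from the limma fit over all tested genes (bars), for each gene (y axis); grey marks genes whose groups overlap, the solid line is 0 and the dashed line the median of all tested genes, -0.06. LOXL4 stands at 1.79, and LOXL2, LOXL3, PLOD2, P4HA1 and P4HA2 lie between -0.89 and -0.74.

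All 10 genes passed the filter on low values, which asked for 1 TPM or more in 2 or more libraries. In 7 of them both sh-PURB libraries lay below both sh-NC libraries, in 1 both lay above, and 2 overlapped, where 29.3% of all tested genes lay below and 18.6% above. The median log2 difference of the 10 was -0.59, against -0.06 for all tested genes. limma called 41 genes over the whole table at an adjusted p under 0.05, 0.287% of those tested, 12 higher (0.0841%) and 29 lower (0.203%) in sh-PURB, and 0 of the 10 were among them. When TPM was recomputed without the most abundant and the mitochondrial genes, 99 genes were higher and 77 lower. At an unadjusted limma p under 0.05 stood 7 of the 10, beside 15.3% of all tested genes. With protein-coding genes fitted alone, 4 of the 10 were called, LOXL4 higher and LOXL2, P4HA1 and P4HA2 lower, beside 3.48% of the genes in that fit (1.33% higher and 2.15% lower). Because the contrast helped to choose the genes, these counts describe them and nothing more is read from them. Recomputing TPM moved the median of all genes by 0.12. Relative to that median, LOXL4 was at 1.85 as deposited and 1.91 recomputed, P4HA2 was at -0.72 recomputed, and the sign of LOXL1 turned to 0.02.

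The order of levels differed between the groups at the top. In sh-PURB cells LOXL4 came first, followed by PLOD1 (48.1 TPM) and P4HA1 (27.3 TPM). PLOD2, P4HA2, PLOD3, LOXL2 and LOXL1 followed at means of 16.2 to 13.2 TPM, where each overlapped at least 1 other and the range of LOXL1 reached all 4 others. LOX and LOXL3 were lowest. In sh-NC cells PLOD1 came first (65.5 TPM), then P4HA1 (46.9 TPM), and PLOD2 overlapped with P4HA2. LOXL2 and LOXL4 followed, in that order. LOXL1 overlapped with PLOD3, and LOX with LOXL3.

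The partners of the hydroxylases, lists chosen with earlier results of these data known, gave no call in the limma fit. Of all tested genes, 58.4% had a log2 difference below 0. At an unadjusted p under 0.05, 9.53% were lower and 5.77% were higher, and the counts of each list stand beside these shares. Of 7 tested genes of prolyl hydroxylation outside the 10, 6 lay below 0 with a median of -0.30, 0 were called, and 1 was lower at an unadjusted p under 0.05. P4HB, the beta subunit of the prolyl 4-hydroxylase and also protein disulfide isomerase, had 68.7 and 79.8 TPM in sh-PURB libraries and 90.6 and 107 TPM in sh-NC libraries (limma adjusted p = 0.264). The summed alpha subunits per P4HB were 0.589 and 0.565 in sh-PURB libraries and 0.799 and 0.706 in sh-NC libraries, so they were lower relative to their partner in both sh-PURB libraries. The prolyl 3-hydroxylase genes P3H2 and P3H3 were at 0.631 and 0.745 of control (limma adjusted p = 0.352 and 0.341), and P3H4, a partner of lysyl hydroxylation, was at 0.798 of control (limma adjusted p = 0.404). CRTAP and PPIB, which form a complex with the prolyl 3-hydroxylase P3H1, overlapped between the groups at 0.999 and 0.936 of control (limma adjusted p = 0.992 and 0.693). P4HA3, the third alpha subunit gene, stayed under 1 TPM in every library and was not tested.

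Genes that help lysyl hydroxylation, folding and export had medians close to that of all tested genes. The 7 tested lysyl glycosylation and hydroxylation partners had a median of -0.01, with 0 called by limma and 1 lower at an unadjusted p under 0.05. FKBP10, a prolyl isomerase needed for PLOD2 activity, was at 37.5 and 51.1 TPM in sh-PURB libraries and 56.4 and 64.6 TPM in sh-NC libraries (limma adjusted p = 0.332). PDIA3 was at 0.841 of control (limma adjusted p = 0.321), and the chaperone HSPA5 at 1.14 (limma adjusted p = 0.640). The 14 genes of collagen chaperoning and export had a median of -0.03, with 0 called and 2 lower at an unadjusted p under 0.05. P4HB is 1 of these 2 and is also the gene counted as lower in the prolyl hydroxylation list. P3H4 stands in both the prolyl and the lysyl list. SERPINH1, the collagen chaperone HSP47, was at 66.3 and 74.9 TPM in sh-PURB libraries and 77.1 and 80.5 TPM in sh-NC libraries (limma adjusted p = 0.545). TRAPPC2 was at 0.646 of control (limma adjusted p = 0.325), and CREB3L1, a transcription factor of bone collagen production, at 1.61 (limma adjusted p = 0.571) with groups that overlapped and a log2 difference of 0.14 to 0.73 when a library was left out, lowest without sh-NC replicate 1.

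Substrates of the enzymes varied between libraries of a group. The 6 tested fibrillar collagen genes all lay below 0, as did 58.4% of all tested genes, and 0 were called by limma (1 lower at an unadjusted p under 0.05). Their median of -0.70 became -0.19 when sh-PURB replicate 1 was left out, -1.16 when sh-PURB replicate 2 was and -0.42 when sh-NC replicate 2 was. COL1A1 had 9.53 and 21.6 TPM in sh-PURB libraries and 13.6 and 39.7 TPM in sh-NC libraries, so the groups overlapped (limma adjusted p = 0.665). Its partner COL1A2 was under 1 TPM in every library. COL3A1 was at 0.530 of control, COL5A1 at 0.537, COL5A2 at 0.542 and COL11A1 at 0.677, with limma adjusted p between 0.255 and 0.485. The summed TPM of the 11 fibrillar collagens was 24.4 and 50.9 in sh-PURB libraries and 46.5 and 77.3 in sh-NC libraries. In both groups replicate 1 had the lower sum, and sh-PURB had the lower sum at each replicate number. COL1A1, COL5A1, COL5A2 and COL11A1 shared this order, while COL3A1 was higher in sh-NC replicate 1 than in sh-NC replicate 2. The labels do not state that same-numbered libraries are pairs. ELN, the elastin gene, stayed under 1 TPM in every library. Of 13 tested elastic fibre genes 10 lay below 0, with 0 called by limma. Their median of -0.50 became -0.30 when sh-PURB replicate 1 was left out and -0.78 when sh-PURB replicate 2 was. At an unadjusted p under 0.05, 5 were lower and 1 was higher. EFEMP1, a fibulin, had 35.1 and 57.2 TPM in sh-PURB libraries against 127 and 164 TPM in sh-NC libraries (limma adjusted p = 0.0850), and passed when protein-coding genes alone were fitted. LTBP2 was at 0.403 of control (limma adjusted p = 0.0987), MFAP2 at 0.624 (0.118) and LTBP1 at 0.619 (0.198).

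Enzymes that trim procollagen went both ways. The 6 tested genes had a median of -0.22, with 0 called by limma. Without sh-NC replicate 1 the median was 0.013 over 5 genes, because ADAMTS2 then fell below the filter. At an unadjusted p under 0.05, 2 were lower and 1 was higher. ADAMTS2, the procollagen N-proteinase, had 0.400 and 0.575 TPM in sh-PURB libraries and 1.68 and 1.54 TPM in sh-NC libraries (limma adjusted p = 0.196). FURIN was at 0.730 of control and PCOLCE, which enhances C-proteinase activity, at 0.641, while its relative PCOLCE2 was at 1.30 (limma adjusted p = 0.232, 0.370 and 0.271).

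**Figure D4:**
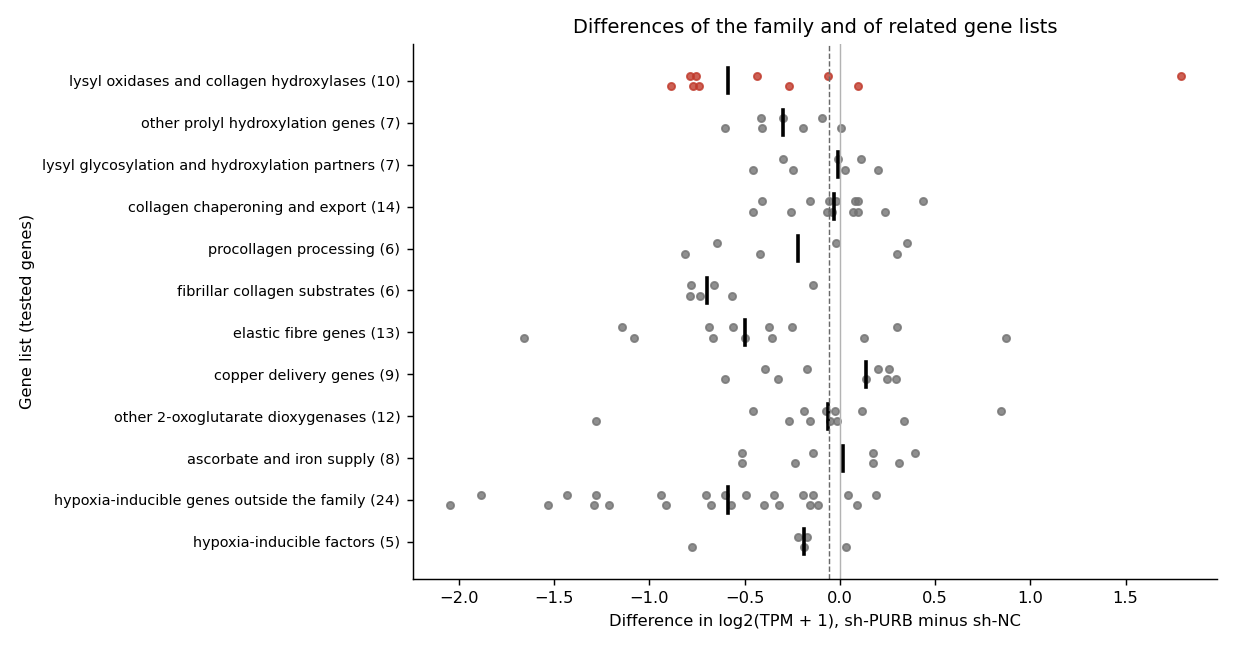
Difference in log2(TPM + 1), sh-PURB minus sh-NC (x axis), of each tested gene (points) in the 10 genes described (red) and in the related lists (grey), with the number tested in brackets; black bars are medians and the dashed line the median of all tested genes, -0.06. The 24 hypoxia-inducible genes have a median of -0.59 and the 6 fibrillar collagens -0.70, while the copper delivery genes have one of 0.14.

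Copper for lysyl oxidases is loaded in the secretory pathway by the pump ATP7A, which had 2.85 and 3.57 TPM in sh-PURB libraries and 5.37 and 5.38 TPM in sh-NC libraries (limma adjusted p = 0.208). The copper chaperones ATOX1 and COX17 were at 1.24 and 1.21 times control and CCS at 0.754 (limma adjusted p = 0.379, 0.488 and 0.439). The 9 copper delivery genes had a median of 0.14, with 0 called by limma and 1 lower at an unadjusted p under 0.05. The other copper amine oxidases AOC1, AOC2 and AOC3 stayed under 1 TPM in every library.

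Most hypoxia-inducible genes outside the 10 had lower values in sh-PURB cells. This list, like the other lists here, was chosen with earlier results of these data known, so its counts are a description. Of 24 tested, 21 lay below 0 and 3 above, with a median of -0.59. In the limma fit 1 was called lower and 15 were lower at an unadjusted p under 0.05. Of all tested genes, 58.4% lay below 0 and 9.53% were lower at that p. The called gene, NDRG1, fell to 15.9 and 15.1 TPM in sh-PURB libraries, against 60.5 and 59.1 TPM in sh-NC libraries (limma adjusted p = 0.0374). The call was lost with either sh-PURB library left out, with a pseudocount of 0.1, with no filter and without the trend, settings in which limma called 0 genes of the whole table. The log2 difference of -1.88 was -1.92 to -1.85 when a library was left out. The aldolase ALDOC was at 0.320 of control (limma adjusted p = 0.0525) and the kinase PFKFB4 at 0.351 (0.0600). The carbonic anhydrase CA9 was listed at 0 and 0.151 TPM in sh-PURB libraries and at 3.91 and 3.02 TPM in sh-NC libraries (limma adjusted p = 0.0541). NDRG1, ALDOC, PFKFB4 and CA9 are named as the 4 with the smallest unadjusted p. Log2 differences of the whole list ran from -2.05 to 0.19. HIF1A mRNA itself overlapped, with 72.6 and 67.3 TPM in sh-PURB libraries and 68.6 and 68.2 TPM in sh-NC libraries (limma adjusted p = 0.917). EPAS1, which encodes HIF-2 alpha, was at 0.476 of control (limma adjusted p = 0.245). The 5 tested hypoxia-inducible factor genes had a median of -0.19, with 0 called and 1 lower at an unadjusted p under 0.05, and ARNT, VHL and ARNT2 were at 0.859, 0.867 and 0.868 of control (limma adjusted p = 0.676, 0.697 and 0.849). Whether the hydroxylases moved with these genes for a shared reason was not tested.

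Other enzymes of the hydroxylase class, the 2-oxoglutarate dioxygenases that act on protein side chains, had a median of -0.06 over 12 tested genes, with 0 called by limma. At an unadjusted p under 0.05, 2 were lower and 1 was higher. EGLN3, an oxygen-sensing HIF prolyl hydroxylase that is itself hypoxia-inducible and stands in both lists, had 0.765 and 1.13 TPM in sh-PURB libraries and 3.75 and 3.67 TPM in sh-NC libraries (limma adjusted p = 0.0831). EGLN1 was at 0.702 of control and HIF1AN at 0.808 (limma adjusted p = 0.227 and 0.433). RIOX2, a ribosomal oxygenase, was higher, at 17.2 and 13.9 TPM in sh-PURB libraries and 8.20 and 8.14 TPM in sh-NC libraries (limma adjusted p = 0.0987). EGLN3 and RIOX2 both passed when protein-coding genes alone were fitted.

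The tested protein-coding genes nearest to LOXL4 over the 4 libraries, by Euclidean distance between log2(TPM + 1) values centred on each gene's mean, were KHDRBS2, NTM, TNNT2, HSPB3 and SREBF1, at distances of 0.128 to 0.366 among 11920 genes. SREBF1, a regulator of lipid synthesis genes, had 38.0 and 66.9 TPM in sh-PURB libraries and 10.6 and 11.5 TPM in sh-NC libraries. NTM, a neural adhesion molecule, had 18.6 and 24.4 TPM in sh-PURB libraries and 5.84 and 6.49 TPM in sh-NC libraries. KHDRBS2, TNNT2 and HSPB3 were under 1 TPM in both sh-NC libraries. Nearest to LOXL3, the gene with the lowest log2 difference of the 10, were DMRTA1, BCL6, MGAT3, YPEL1 and PRR29, at distances of 0.0571 to 0.106. With 4 libraries in 2 groups, such likeness is mostly a like difference between the groups on the log2(TPM + 1) scale. Ratios of mean TPM were less alike: 10.8 (KHDRBS2), 13.7 (TNNT2), 10.3 (HSPB3), 4.74 (SREBF1) and 3.49 (NTM), against 3.63 for LOXL4. The 1 added to TPM narrows the log2 differences of genes with low values, such as KHDRBS2, TNNT2 and HSPB3.

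Exons of 8 of the 10 genes overlap another annotated gene, and the sources used here do not state that counting used strand, so reads in the shared stretches cannot be told apart. The overlapping tested genes lay between 0.881 and 1.18 of control. SRFBP1 over LOX was at 1.18 times control, LOXL1-AS1 over LOXL1 at 0.918, ENTPD4 over LOXL2 at 0.915, DOK1 and HTRA2 over LOXL3 at 0.881 and 1.15, and ZNHIT1 over PLOD3 at 0.931. P4HA2-AS1 was listed at 0 in every library. AL139241.1 over LOXL4, AL731563.2 over P4HA1 and AC090197.1 over LOXL2 were not analysed here. PLOD1 and PLOD2 had no such overlap.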

How the data were processed

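The authors deposited TPM for each gene symbol, in 1 table of all 4 libraries; the authors' tables of single libraries hold the same values. Tools in the submitters' processing notes are kallisto 0.44.0, bcl2fastq 2.19, DESeq2 and sleuth, with GRCm38 beside GRCh38 as builds and no role for any. The annotation and strand setting are not given in the sources used here, nor is the use of the mouse build. kallisto shares reads among similar transcripts. TPM keeps no depth, so no counting interval can be given. A row without a name, 0.921% to 1.66% of a library, was left out.

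The 14269 genes reaching 1 TPM in 2 or more libraries were fitted as log2(TPM + 1) in limma 3.58.1 (R 4.3.3, empirical Bayes with an intensity trend), and p-values were adjusted over all of them (Benjamini-Hochberg, threshold 0.05). Differences on this scale understate changes of low genes. Degrees of freedom were 2 (residual) and 2.92 (prior), and the fit was tested on simulated data. Ratios are of mean TPM. Gene coordinates and types are from GENCODE 29 on GRCh38, and promoter sequences from RefSeq on GRCh38.p14. The 10 genes and the 12 related lists were chosen with earlier results of these data known. Text names the 10 genes, PURB, 12 set partners and substrates, from each list the called genes and up to 4 with the smallest p, the 5 genes nearest LOXL4 and LOXL3, and genes over their exons; AOC1 to AOC3, P4HA3, P3H1 and marker genes are named beside them. The alternatives were median-ratio rescaling, a filter at TPM 5 or none, pseudocounts of 0.1 and 0.5, no trend, TPM recomputed after dropping mitochondrial genes and those above 1% of a library, protein-coding genes fitted alone with equal sums, the replicate number as a block, and each library left out.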

Additional observations from a re-analysis of the deposited data

How the results depend on the processing

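The direction of LOXL4, LOX, LOXL2, LOXL3, PLOD1, PLOD2, P4HA1 and P4HA2 was the same in all settings in which each was fitted (LOX and LOXL3 fell below the filter at TPM 5). LOXL1 changed sign with median-ratio rescaling (0.04), with recomputed TPM (0.08) and without sh-PURB replicate 1, and PLOD3 without sh-NC replicate 1. Leaving out each library in turn gave LOXL4 log2 differences of 1.54 to 2.04 and P4HA1 ones of -0.83 to -0.68. Of 128 values of the 10 genes, 118 moved by less than the spread between replicates, but this count is no measure of stability. Changing the filter, the trend or the block leaves a log2 difference as it was. Leaving out a library shifts it by part of that group's own replicate gap. The 10 values that moved came with a pseudocount of 0.1, median-ratio rescaling or recomputed TPM. Of 777 values for other named genes, 33 gained and 5 lost a call and 0 reversed.

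The number of genes called across all tested genes, 41, was 0 with a pseudocount of 0.1, with no filter and in limma without trend, 121 with the filter at TPM 5, 84 with median-ratio rescaling, 176 with recomputed TPM, 415 with protein-coding genes only and 0 to 155 with a library left out. Of the 10 genes, 1 was called (LOXL4) with the filter at TPM 5, median-ratio rescaling and recomputed TPM, 4 with protein-coding genes only, and 0 to 1 with a library left out. Genes tested numbered 8597 with the filter at TPM 5, 14243 with median-ratio rescaling, 17069 with recomputed TPM and 11928 with protein-coding genes only. The main fit and the replicate block each tested 14269. The contrast helped to choose the 10 genes, so their counts are a description without a test. PURB passed with protein-coding genes only (-0.91). The replicate numbers give 2 pairs, too few to show pairing; deviations of same-numbered libraries correlated at 0.193, and with the replicate block 118 genes were called, with 1 of the 10. The cause of these changes was not tested.

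The ratio of summed lysyl oxidases, 1.62, was 1.34 to 1.90 with a library left out. The lysyl hydroxylase ratio, 0.735, was 0.795 with median-ratio rescaling and 0.818 with recomputed TPM, and the prolyl 4-hydroxylase ratio, 0.577, was 0.622 and 0.641. The median log2 difference of all tested genes also rose, by 0.091 with median-ratio rescaling and 0.12 with recomputed TPM. Median-ratio rescaling and recomputed TPM gave list medians of -0.20 and -0.21 for other prolyl hydroxylation (-0.25 with protein-coding genes only), 0.086 and 0.13 for lysyl partners, 0.074 and 0.12 for chaperoning and export, 0.036 and 0.080 for other dioxygenases, and 0.11 and 0.16 for ascorbate and iron supply, and recomputed TPM gave 0.30 for copper delivery. The filter at TPM 5 gave -0.019 for procollagen processing (5 genes, 6 in the main fit), 0.014 for copper delivery (6, 9 in the main fit) and 0.17 for ascorbate and iron (6, 8 in the main fit). No filter gave -0.42 for procollagen processing (9 genes) and -0.14 for fibrillar collagens (11, 6 in the main fit). Each setting applied its filter anew, so such medians rest on different genes. The hypoxia-inducible list had 24 genes in the main fit and 21 when either sh-NC library was left out, without CA9. Procollagen processing then had 5 genes. With a library left out the medians ran from -0.31 to -0.20 for other prolyl hydroxylation, -0.14 to 0.059 for lysyl partners, -0.31 to 0.013 for procollagen processing, -1.16 to -0.19 for fibrillar collagens, -0.78 to -0.30 for elastic fibre genes, -0.12 to 0.011 for chaperoning and export, -0.015 to 0.28 for copper delivery, -0.16 to 0.0015 for other dioxygenases, -0.18 to 0.087 for ascorbate and iron, -0.63 to -0.43 for hypoxia-inducible genes and -0.48 to -0.023 for hypoxia-inducible factors.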

Other observations

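Iron and ascorbate are cofactors of the collagen hydroxylases. The 8 tested genes of their supply had a median log2 difference of 0.02, with 0 called by limma and 2 lower at an unadjusted p under 0.05. Those 2 were the ferritin subunits. FTH1 had 234 and 260 TPM in sh-PURB libraries and 344 and 361 TPM in sh-NC libraries (limma adjusted p = 0.103). FTL had 348 and 339 TPM in sh-PURB libraries and 523 and 462 TPM in sh-NC libraries (limma adjusted p = 0.104). The metal transporter SLC39A14 was at 1.27 times control and the ascorbate transporter SLC23A2 at 0.808 (limma adjusted p = 0.504 and 0.622), and SLC23A1, the other ascorbate transporter of the list, was listed at 0 in every library.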
